A study of Mus musculus with 8 samples.

Results

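Smooth muscle, peritubular myoid and pericyte genes were followed across RNA-seq libraries of spermatogonia isolated from the testes of C57BL/6 mice at postnatal day 7. The members were named as 10 symbols, chosen with earlier results of these data known. They are Des, Acta2, Actg2, Myh11, Tagln and Cnn1, which encode parts of the contractile apparatus, and Rgs5, Pdgfrb, Pdgfra and Cspg4, which mark pericytes and mesenchymal cells. All 10 were found among the 23343 symbols of the deposited tables, all 10 passed the filter on low counts that left 14907 genes to be tested, and none was at 0 in any library. The groups were Thy1+ spermatogonia of PRC1dKO mice (Thy1 dKO), cKit+ spermatogonia of PRC1dKO mice (cKit dKO), Thy1+ spermatogonia of PRC1ctrl mice (Thy1 control) and cKit+ spermatogonia of PRC1ctrl mice (cKit control), with 2 libraries each. In spermatogonia, Thy1 is used to enrich undifferentiated cells and Kit marks differentiating ones. The labels do not spell out the deleted alleles, the Cre driver, the alleles that the controls carry, whether animals were pooled, or whether the libraries of a group came from separate animals, so p-values measure only the spread between these libraries.

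Peritubular myoid cells are flattened contractile cells that wrap the seminiferous tubule, and their contraction moves fluid and sperm along it. Vascular smooth muscle cells and pericytes surround the blood vessels of the interstitium and share most of the contractile proteins with myoid cells. In all of these cells, genes such as Acta2, Myh11, Tagln and Cnn1 are known targets of serum response factor (Srf), which binds CArG boxes near their promoters together with the coactivator myocardin. Germ cells are not known as a main source of these transcripts, and the samples are labelled spermatogonia. In bulk RNA, fewer cells of a type and less RNA per cell cannot be told apart.

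The promoter stretches of 3 contractile members are shown because Srf sites are the regulatory feature that this gene group is best known for. RefSeq promoter windows on GRCm38.p6, from 250 bases before to 50 after the start, were given for 6 of the 10 members. The start is that of RefSeq, and for Des and Pdgfra it lies upstream of the deposited gene start given below. The windows were searched for CCNNNNNNGG with at least 5 of the 6 inner bases A or T, a looser form of the CArG box that reads the same on both strands. The 120 bases before the start are printed for Acta2 (smooth muscle alpha actin, minus strand, chr19:34255374-34255493), Cnn1 (calponin 1, plus strand, chr9:22099133-22099252) and Des (desmin, plus strand, chr1:75360172-75360291), with the matches in capitals.
Acta2: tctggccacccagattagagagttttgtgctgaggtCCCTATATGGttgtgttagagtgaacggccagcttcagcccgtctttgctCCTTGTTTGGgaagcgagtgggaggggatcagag
Cnn1: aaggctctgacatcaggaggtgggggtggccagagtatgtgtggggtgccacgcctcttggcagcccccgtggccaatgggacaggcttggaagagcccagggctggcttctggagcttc
Des: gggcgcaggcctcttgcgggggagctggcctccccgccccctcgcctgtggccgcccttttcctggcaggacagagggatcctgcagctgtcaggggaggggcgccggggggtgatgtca

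Acta2 held 2 matches, CCCTATATGG at -84 to -75 and CCTTGTTTGG at -34 to -25 from the start. Cnn1, Des, Rgs5, Pdgfra and Cspg4 held none in their windows. At least 1 match stood in 3280 of all 32851 windows (9.98%), and 2 or more stood in 0.822%. A match is a run of letters and not a measured binding site, and a window without one says nothing about sites elsewhere.

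Library totals ran from 6763908 to 10976869 counts, and levels below are CPM, that is, counts scaled to the TMM-adjusted total of the library. Levels of the 2 surface markers followed the labels, with Kit at 938 to 1058 CPM in cKit libraries against 281 to 317 CPM in Thy1 libraries, and Thy1 at 0 to 1.28 CPM in cKit libraries against 12.8 to 26.0 CPM in Thy1 libraries. Ring1 and Rnf2, which encode the catalytic subunits of PRC1, were detected in all 8 libraries, at 2.59 to 12 CPM and 103 to 146 CPM. Whole-gene counts are no check of an unspecified deletion. Markers of somatic cells were present in every library beside germ cell genes. Summed over 12 stromal fibroblast markers, the level was 12005 and 12447 CPM in Thy1 dKO, 5984 and 4785 CPM in cKit dKO, 13911 and 10895 CPM in Thy1 control, and 3064 and 3084 CPM in cKit control. Summed over 12 germ cell markers, the level was 1992 and 1758 CPM in Thy1 dKO, 457 and 592 CPM in cKit dKO, 2030 and 2297 CPM in Thy1 control, and 1720 and 1345 CPM in cKit control. Skeletal muscle markers summed to 10.4 to 20.9 CPM over 8 genes. Gene positions below are as deposited, on mm10.

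1 library stood apart for the contractile members. Replicate 1 of Thy1 control was 5.0 times its partner for Actg2, 4.25 times for Cnn1, 2.57 times for Acta2, 2.33 times for Myh11, 1.89 times for Tagln and 1.35 times for Des. Only 0.409% of all tested genes differed as far between these 2 libraries as Actg2 did, against 2.53% for Acta2 and 23.9% for Des. The receptor and pericyte members did not share the gap, since the ratio was 1.01 for Rgs5, 1.09 for Pdgfrb, 0.989 for Pdgfra and 1.18 for Cspg4. Of the marker sums, the stromal fibroblast sum was 1.28 times as high in replicate 1, the sum of 21 other smooth muscle contractile genes 1.23 times and the skeletal muscle sum 1.10 times. The endothelial sum stood at 1.02 times, the Leydig sum at 0.804 times and the germ cell sum at 0.884 times. Changes of the members that lose their call, or move by over 1.5 times, without this library are given with and without it.

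**Figure D1:**
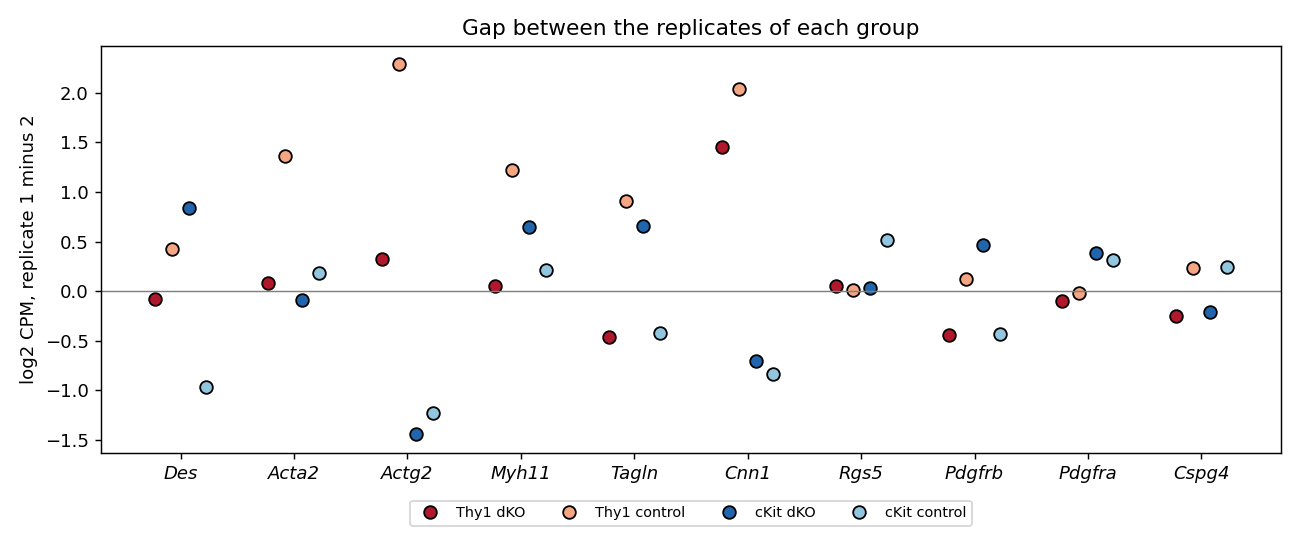
Difference between the replicates of each group (log2 CPM, replicate 1 minus replicate 2) for the 10 members, 1 point per group. The Thy1 control points of Actg2, Cnn1, Acta2 and Myh11 lie above 1, while those of Rgs5, Pdgfrb, Pdgfra and Cspg4 lie near 0.

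In cKit control libraries every member was lower than in Thy1 control libraries. Of all tested genes, 19.7% passed the edgeR quasi-likelihood test (Benjamini-Hochberg adjusted p under 0.05) between these populations and 10.3% passed as lower, against 10 of 10 members lower. The median log2 fold change of the members was -3.50, beside 0.01 over all tested genes. This median was -2.56, beside 0.02, without replicate 1 of Thy1 control. The record numbers that the labels give the cKit and Thy1 libraries come from separate ranges, so population and whatever those numbers stand for cannot be told apart.

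**Figure D2:**
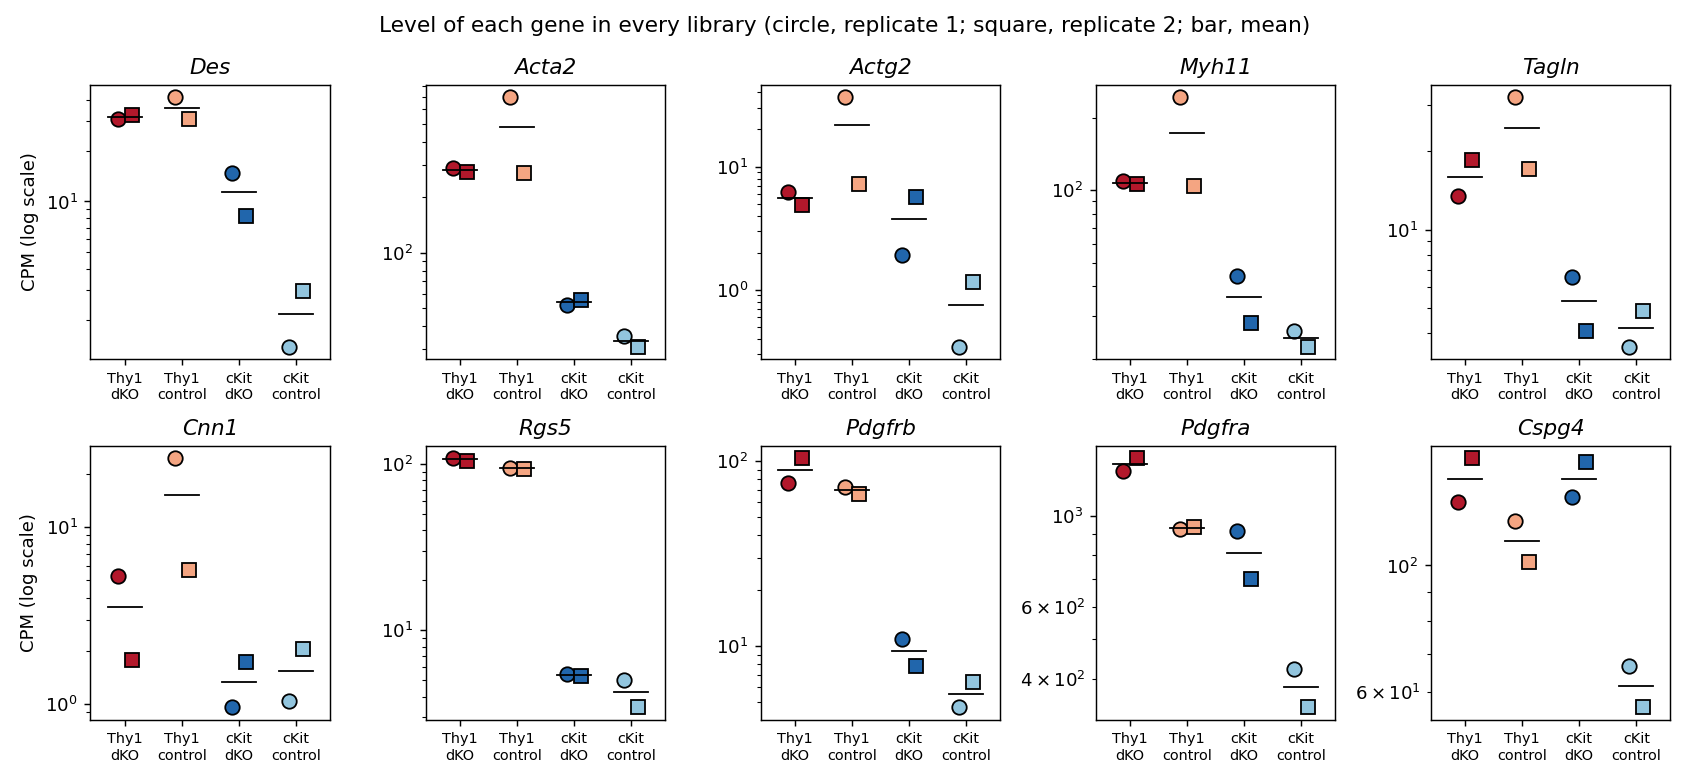
Level of each member in every library (CPM, log scale), in columns for Thy1 dKO, Thy1 control, cKit dKO and cKit control; circles are replicate 1, squares replicate 2 and bars the group mean. Rgs5 and Pdgfrb lie far lower in both cKit groups than in both Thy1 groups, whereas Cspg4 in cKit dKO (132 and 152 CPM) lies in the range of Thy1 dKO (129 and 154 CPM).

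Acta2 (chr19:34240336-34255373, minus strand) had the highest RPKM of the contractile members in all 4 groups. It had 35.2 and 31.0 CPM in cKit control, against 695 and 270 CPM in Thy1 control. Even the lower Thy1 control library was far above both cKit control libraries, and the log2 fold change was -3.86 ± 0.31 (SE, edgeR adjusted p = 3.9e-07), or -3.02 without replicate 1 of Thy1 control. Myh11 (chr16:14194527-14291408, minus strand), the smooth muscle myosin heavy chain, had 26.1 and 22.5 CPM in cKit control, against 244 and 104 CPM in Thy1 control. Its groups did not overlap, as for 29.8% of all tested genes in this direction, and its change was -2.83 ± 0.30 (edgeR adjusted p = 6.4e-06), or -2.10 without replicate 1 of Thy1 control. Tagln (chr9:45929628-45936058, minus strand), the actin-binding protein transgelin, had 3.55 and 4.85 CPM in cKit control, against 32.2 and 17 CPM in Thy1 control. Its log2 fold change was -2.56 ± 0.36, or -2.03 without that replicate.

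Des (chr1:75360344-75367715, plus strand) encodes the muscle intermediate filament protein desmin. It had 1.39 and 2.93 CPM in cKit control, against 41.3 and 30.6 CPM in Thy1 control, and its log2 fold change was -4.11 ± 0.35 (edgeR adjusted p = 8e-07). Actg2 (chr6:83512909-83536251, minus strand), the gamma actin of enteric smooth muscle, had only 4 and 9 counts in cKit control, which is 0.346 and 1.15 CPM, against 277 and 62 counts or 36.4 and 7.28 CPM in Thy1 control. Its log2 fold change was -4.95 ± 0.77 (edgeR adjusted p = 0.00025), or -3.35 (adjusted p = 0.0088) without replicate 1 of Thy1 control. Cnn1 (chr9:22099253-22109221, plus strand), which binds actin and dampens myosin activity, had 1.04 and 2.04 CPM in cKit control, against 24.5 and 5.75 CPM in Thy1 control. Its log2 fold change was -3.32 ± 0.68 (edgeR adjusted p = 0.0025) but fell short of the test without replicate 1 of Thy1 control, at -1.92 (adjusted p = 0.14); the other 9 members still passed without that library, as did 11.0% of the genes then tested.

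The pericyte members split by how far they differed between the populations. Rgs5 (chr1:169655501-169693526, plus strand), a regulator of G protein signalling that is a classic pericyte marker, had 5.02 and 3.45 CPM in cKit control, against 94.5 and 94.0 CPM in Thy1 control. Its 21.7-fold lower level (log2 -4.44 ± 0.19, edgeR adjusted p = 3.8e-09) had the smallest adjusted p of the members with all libraries, and its Thy1 control libraries were nearly equal. Pdgfrb (chr18:61045150-61085067, plus strand), the PDGF receptor of pericytes and mural cells, had 4.68 and 6.38 CPM in cKit control, against 72.5 and 66.4 CPM in Thy1 control (log2 -3.67 ± 0.23). Both of these genes were more than 10-fold lower in cKit control.

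Pdgfra (chr5:75152291-75198204, plus strand), the PDGF receptor of mesenchymal progenitors and interstitial cells, and Cspg4 (chr9:56865104-56899870, plus strand), the NG2 proteoglycan of pericytes, differed far less. Pdgfra had 424 and 341 CPM in cKit control, against 926 and 936 CPM in Thy1 control (log2 -1.28 ± 0.13, edgeR adjusted p = 4.4e-06). Cspg4 had 66.6 and 56.4 CPM in cKit control, against 120 and 102 CPM in Thy1 control (log2 -0.84 ± 0.14, edgeR adjusted p = 0.00055). Cspg4 was also the only member here whose call was lost on the deposited RPKM values, with a limma adjusted p of 0.051 on log2(RPKM + 0.1). The marker sums of other cells also differed between these groups. Leydig markers summed to 11079 and 13304 CPM in cKit control against 2574 and 3201 CPM in Thy1 control, macrophage markers to 192 and 442 CPM against 1023 and 1178 CPM, and endothelial markers to 242 and 245 CPM against 352 and 346 CPM. The part of cell composition in these differences was not tested.

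In cKit spermatogonia of dKO mice, 5 of the 10 members were higher than in cKit control and none was lower: Des, Cspg4, Pdgfra, Actg2 and Pdgfrb. In this comparison 28.6% of all tested genes passed the edgeR test, 1965 genes (13.2%) as higher and 2294 as lower. With libraries scaled by their totals alone the split was 1278 higher and 3007 lower, and the median of all genes moved to -0.10 (log2), or to -0.31 on log2(RPKM + 0.1). The median log2 fold change of the members was 0.74, beside 0.03 over all tested genes. The calls of Des, Pdgfra and Cspg4 held in every alternative tried, while those of Actg2 and Pdgfrb did not.

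Des and Actg2 had the largest fitted changes with all libraries, at 2.46 and 2.43 on the log2 scale, and Actg2 was ahead of Des with the replicate block, without replicate 1 of cKit dKO and without replicate 2 of cKit control. Des had 14.7 and 8.16 CPM in cKit dKO, from 92 and 52 counts, against 1.39 and 2.93 CPM in cKit control, from 16 and 23 counts. The groups did not overlap, as in 30.8% of all tested genes in this direction, and the log2 fold change was 2.46 ± 0.37 (5.51-fold, edgeR adjusted p = 0.00022). Leaving out each library in turn gave 1.95 to 3.07. Desmin was still lower in cKit dKO than in Thy1 dKO, where it had 30.7 and 32.4 CPM (log2 -1.46 ± 0.30, edgeR adjusted p = 0.0014).

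Cspg4 had 132 and 152 CPM in cKit dKO, against 66.6 and 56.4 CPM in cKit control. This higher level (2.30-fold, log2 1.20 ± 0.14, edgeR adjusted p = 3.5e-05) had a small spread within groups. Between the dKO populations the log2 fold change of Cspg4 was 0.0006 ± 0.14, in cKit over Thy1. Pdgfra had 916 and 702 CPM in cKit dKO, against 424 and 341 CPM in cKit control, a 2.11-fold higher level (log2 1.08 ± 0.13, edgeR adjusted p = 3.7e-05). For both genes the lower dKO library was above the higher control library, and both calls held whichever library was left out.

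Actg2 had 12 and 36 counts in cKit dKO, or 1.92 and 5.65 CPM, against 4 and 9 counts, or 0.346 and 1.15 CPM, in cKit control. The log2 fold change of 2.43 ± 0.85 passed narrowly (edgeR adjusted p = 0.043), and over the other settings the adjusted p ran from 2.8e-05 to 0.38. Without replicate 2 of cKit dKO it was 1.5 (adjusted p = 0.32), and without replicate 1 of cKit control 1.71 (adjusted p = 0.30). Pdgfrb had 10.9 and 7.84 CPM in cKit dKO, against 4.68 and 6.38 CPM in cKit control, which is 0.78 ± 0.26 higher on the log2 scale (edgeR adjusted p = 0.036). Its call held in 4 of the 8 fits that left out 1 library and in 4 of the 9 other settings. It was lost without replicate 1 of cKit control (0.55, adjusted p = 0.27), without replicate 1 of cKit dKO (0.58, adjusted p = 0.19) and, at an unchanged size, without either Thy1 control library (adjusted p = 0.051 and 0.050). It was also lost when libraries were scaled by their totals alone (0.64, adjusted p = 0.076), with only the 4 cKit libraries (adjusted p = 0.21), with the highest entry per symbol (adjusted p = 0.060) and in limma on RPKM (adjusted p = 0.35 and 0.60). Replicate 1 of cKit control carries a record number apart from the other 3 cKit libraries. Without it 3 members were called, Cspg4, Des and Pdgfra, and 15.4% of the genes then tested.

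The remaining members did not pass in cKit dKO. Acta2 had 52.2 and 55.4 CPM in cKit dKO, against 35.2 and 31.0 CPM in cKit control (log2 0.69 ± 0.30, edgeR adjusted p = 0.10). Its groups did not overlap and its replicates were close, but the change missed the threshold with all libraries. It passed when only the 4 cKit libraries were fitted (edgeR adjusted p = 0.016) and without either Thy1 control library (adjusted p = 0.0019 and 0.0015), and the spread estimate differs between these fits. Myh11 had 44.0 and 28.1 CPM in cKit dKO, against 26.1 and 22.5 CPM in cKit control (log2 0.56 ± 0.31, edgeR adjusted p = 0.19). Tagln had 6.56 and 4.08 CPM in cKit dKO, against 3.55 and 4.85 CPM in cKit control, and its groups overlapped. Cnn1 had 0.961 and 1.73 CPM in cKit dKO, against 1.04 and 2.04 CPM in cKit control, from 6 to 16 counts a library; its log2 fold change of -0.15 ± 0.82 has a wide error at this depth. Rgs5 had 5.44 and 5.33 CPM in cKit dKO, against 5.02 and 3.45 CPM in cKit control (log2 0.31 ± 0.24, edgeR adjusted p = 0.36). Rgs5 and Pdgfrb were far below their Thy1 dKO levels, at log2 fold changes of -4.31 ± 0.19 and -3.26 ± 0.22 in cKit over Thy1.

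**Figure D3:**
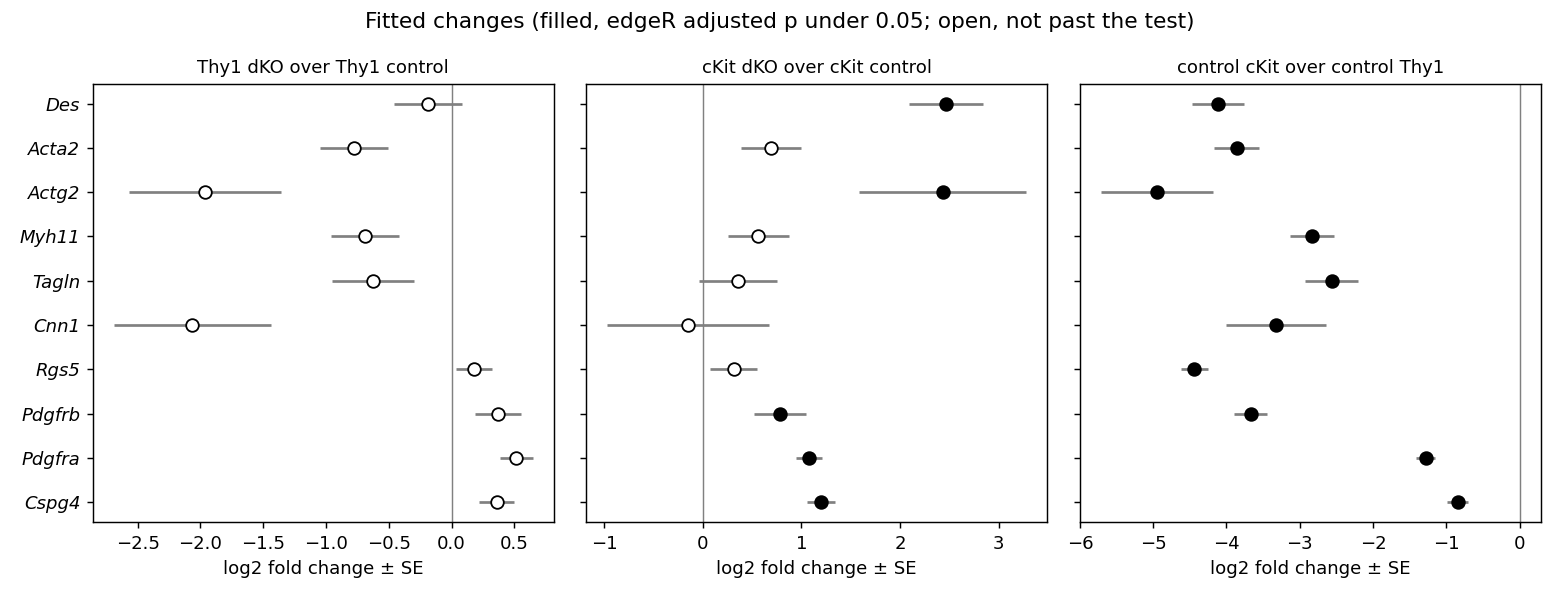
Log2 fold change with its SE (edgeR) of each member in Thy1 dKO over Thy1 control, in cKit dKO over cKit control, and in control cKit over control Thy1; filled points had an adjusted p under 0.05. No point is filled for Thy1, 5 are filled for cKit dKO, all of them above 0, and all 10 are filled and below 0 between the control populations.

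Between the dKO populations, 7 members were lower in cKit than in Thy1, while 34.8% of all tested genes passed this comparison, 2202 genes as higher and 2988 (20.0%) as lower, or 1666 and 3797 with library totals alone. These were Des, Acta2, Myh11, Tagln, Rgs5, Pdgfrb and Pdgfra, with log2 fold changes from -4.31 for Rgs5 to -0.72 for Pdgfra. Acta2 stood at -2.39 ± 0.29 (edgeR adjusted p = 2.3e-05), while Actg2 (-0.55 ± 0.67) and Cnn1 (-1.40 ± 0.76, edgeR adjusted p = 0.17) did not pass. The comparisons between populations and between genotypes share libraries, so their values for a member are not independent.

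Marker sums of several somatic cell types were also higher in cKit dKO, and germ cell markers lower. The macrophage sum did not share this, at 161 and 573 CPM in cKit dKO against 192 and 442 CPM in cKit control. None of the 10 macrophage markers passed. Of 12 stromal fibroblast markers, 8 were higher and 1 was lower. Of 12 Sertoli markers 6 were higher, of 10 Leydig markers 7 were higher and 1 lower, and of 11 endothelial markers 5 were higher. Of 12 germ cell markers 10 were lower and none was higher. With replicate 1 of cKit control left out, 7 stromal fibroblast, 3 Sertoli, 4 Leydig and 4 endothelial markers were higher and 8 germ cell markers were lower. The endothelial sum was 457 and 510 CPM in cKit dKO against 242 and 245 CPM in cKit control, the Sertoli sum 1480 and 1503 CPM against 976 and 1051 CPM, and the Leydig sum 15469 and 18080 CPM against 11079 and 13304 CPM. The summed contractile members were 120 and 103 CPM in cKit dKO against 67.6 and 64.4 CPM in cKit control, and the summed receptor and pericyte members 1064 and 867 CPM against 500.3 and 408 CPM. Whether a shift in cell composition set the members' changes was not tested.

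**Figure D4:**
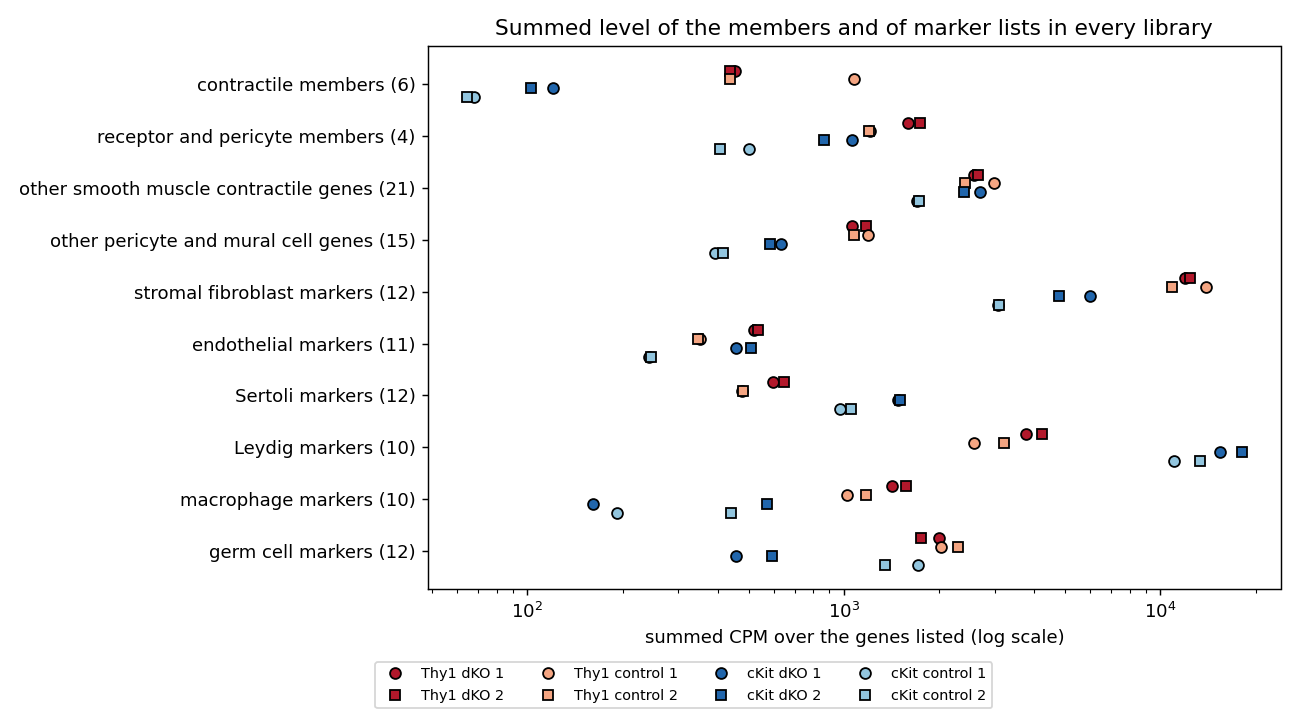
Summed CPM (log scale) of the contractile members, of the receptor and pericyte members and of 8 marker lists, 1 point per library, coloured by group; the number of genes summed stands beside each name. The contractile sum of replicate 1 of Thy1 control (1073 CPM) lies apart from the other 3 Thy1 libraries (435 to 454 CPM), and the germ cell sums of cKit dKO (457 and 592 CPM) are the lowest of all libraries.

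In Thy1 spermatogonia no member passed the test between dKO and control. The share of all tested genes that passed was 0.624%. For the contractile members the fitted changes were below 0. All were smaller in size without replicate 1 of Thy1 control, the single high library. Without it Actg2 (-0.39 on the log2 scale), Cnn1 (-0.69) and Tagln (-0.10) stayed below 0. Acta2 had 289 and 273 CPM in Thy1 dKO, against 695 and 270 CPM in Thy1 control. The dKO libraries were close to each other and to the lower control, and the log2 fold change of -0.78 ± 0.27 (edgeR adjusted p = 0.19) became 0.06 without replicate 1 of Thy1 control and -1.31 (adjusted p = 0.0011) without replicate 2. Myh11 had 110 and 106 CPM in Thy1 dKO, against 244 and 104 CPM in Thy1 control, and its change of -0.69 ± 0.27 likewise became 0.04 without replicate 1 and -1.18 (adjusted p = 0.040) without replicate 2.

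Actg2 and Cnn1 had the largest fitted changes in Thy1. Actg2 had 6.19 and 4.90 CPM in Thy1 dKO, against 36.4 and 7.28 CPM in Thy1 control (log2 -1.96 ± 0.61, edgeR adjusted p = 0.15). Cnn1 had 5.29 and 1.77 CPM in Thy1 dKO, against 24.5 and 5.75 CPM in Thy1 control (log2 -2.06 ± 0.62, edgeR adjusted p = 0.14). Both dKO libraries were below both controls for each gene, as for 22.8% of all tested genes in this direction, and without replicate 1 of Thy1 control the changes were -0.39 and -0.69. Both were called lower when only the 4 Thy1 libraries were fitted (edgeR adjusted p = 0.032 for Actg2 and 0.038 for Cnn1), where 6.05% of the genes tested passed. Without the filter on low counts, 2.86% of the genes tested passed. There Actg2 (edgeR adjusted p = 2.6e-05), Cnn1 (0.00033), Acta2 (2.6e-07) and Myh11 (0.0003) were called lower and Pdgfra (0.00031) higher. The spread estimate differs in that fit, where the SE of Acta2 was 0.12 against 0.27 with the filter. The groups of Acta2 and of Myh11 overlapped. Tagln, with 13.4 and 18.5 CPM in Thy1 dKO against 32.2 and 17 CPM in Thy1 control, and Des, with 30.7 and 32.4 CPM against 41.3 and 30.6 CPM, had overlapping groups. The median log2 fold change of the 10 members was -0.41 with all libraries and 0.05 without replicate 1 of Thy1 control.

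The receptor and pericyte members had fitted changes above 0 in Thy1, and for all 4 both dKO libraries were above both controls, without passing the test. Pdgfra had 1283 and 1379 CPM in Thy1 dKO, against 926 and 936 CPM in Thy1 control. Its groups did not overlap, as for 28.5% of all tested genes in this direction, and the log2 fold change of 0.52 ± 0.13 was not past the threshold (edgeR adjusted p = 0.075). It was called by DESeq2 (adjusted p = 0.0096) and when only the 4 Thy1 libraries were fitted (edgeR adjusted p = 0.0033). Over the fits that left out 1 library its log2 fold change was 0.46 to 0.56, and it was mostly not called. Cspg4 had 129 and 154 CPM in Thy1 dKO, against 120 and 102 CPM in Thy1 control (log2 0.36 ± 0.14, edgeR adjusted p = 0.26). Pdgfrb had 76.1 and 104 CPM in Thy1 dKO, against 72.5 and 66.4 CPM in Thy1 control (log2 0.37 ± 0.18), and Rgs5 109 and 105 CPM against 94.5 and 94.0 CPM (log2 0.18 ± 0.14). Endothelial markers summed to 521 and 534 CPM in Thy1 dKO against 352 and 346 CPM in Thy1 control, with 2 of 11 called higher. Leydig markers summed to 3775 and 4215 CPM in Thy1 dKO against 2574 and 3201 CPM in Thy1 control (2 of 10 called higher), Sertoli markers to 599 and 646 CPM against 477 and 481 CPM (1 of 12), and macrophage markers to 1421 and 1567 CPM against 1023 and 1178 CPM (none of 10). With all libraries the median log2 fold change was 0.74 for endothelial, 0.39 for Sertoli, 0.40 for Leydig and 0.42 for macrophage markers. Without replicate 1 of Thy1 control these medians were 0.74, 0.40, 0.21 and 0.30. The part of these cells in the members' values was not tested.

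The dKO effect in cKit exceeded that in Thy1 for 4 of the 10 members, Des, Acta2, Actg2 and Cspg4. Of all tested genes, 5.92% passed this test of the difference, 278 genes (1.86%) as higher in cKit and 605 as lower, or 172 and 966 with library totals alone. The difference on the log2 scale was 2.65 ± 0.46 for Des (edgeR adjusted p = 0.0043), 4.40 ± 1.04 for Actg2 (adjusted p = 0.021), 0.84 ± 0.20 for Cspg4 (adjusted p = 0.022) and 1.47 ± 0.41 for Acta2 (adjusted p = 0.045). Without replicate 1 of Thy1 control 1 of these remained, Des at 2.42 (adjusted p = 0.030), while Acta2 stood at 0.64, Actg2 at 2.79 and Cspg4 at 0.72; of the genes then tested, 1.9% passed. Des was called in the difference whichever library was left out. Acta2 and Actg2 were each called there in 3 of the 8 fits that left out 1 library, and Cspg4 in 6. Myh11 (1.25 ± 0.41, edgeR adjusted p = 0.093) and Pdgfra (0.56 ± 0.18, edgeR adjusted p = 0.087) did not pass. Cnn1 did not pass either, at 1.92 ± 1.04 (edgeR adjusted p = 0.32). Without replicate 1 of Thy1 control Myh11 stood at 0.52 and Cnn1 at 0.52.

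**Figure D5:**
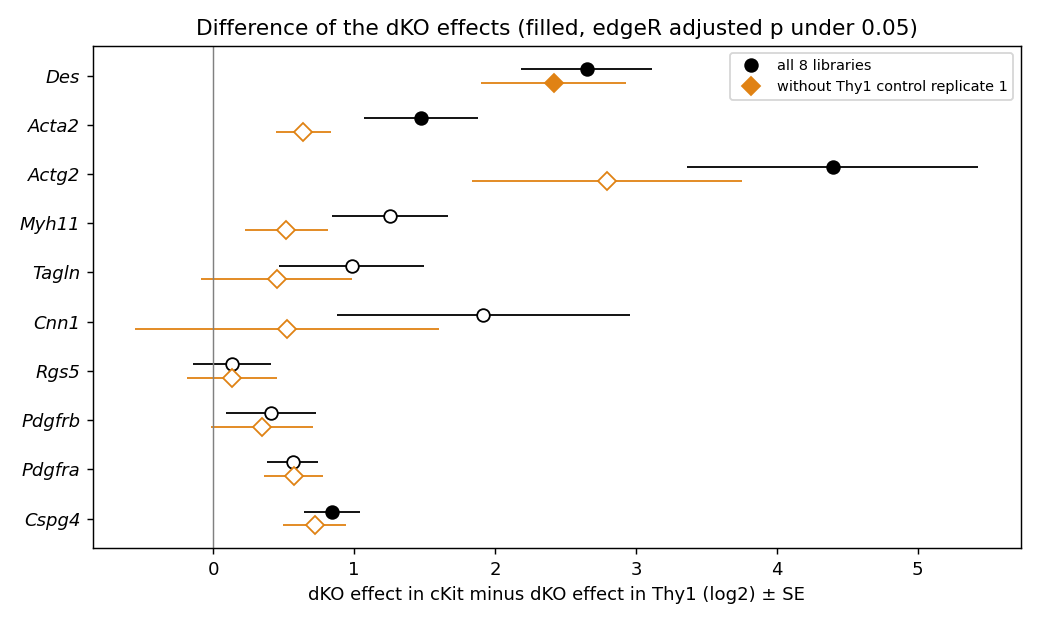
Effect of dKO in cKit minus effect of dKO in Thy1 (log2, with SE) for each member, with all 8 libraries and without replicate 1 of Thy1 control; filled symbols had an edgeR adjusted p under 0.05. With all libraries Des, Acta2, Actg2 and Cspg4 are filled, and without that replicate Des alone is.

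Levels per length were compared on the deposited RPKM values. Pdgfra had the highest RPKM in 3 of the groups, at 57.1 ± 2.4 in Thy1 dKO, 32.6 ± 4.6 in cKit dKO and 19.7 ± 4.1 in cKit control (SD, n = 2). In Thy1 control Acta2 stood first at 54.7 ± 37.0 RPKM, ahead of Pdgfra at 40.6 ± 2.4 RPKM, but the order of these neighbours differed between the libraries, since Acta2 had 80.9 RPKM in replicate 1 and 28.6 RPKM in replicate 2. Acta2 followed Pdgfra in the other groups, at 30.7 RPKM in Thy1 dKO, 5.54 RPKM in cKit dKO and 4.35 RPKM in cKit control. Rgs5 came next in both Thy1 groups, at 16.6 RPKM in Thy1 dKO and 14.9 RPKM in Thy1 control, whereas Cspg4 came next in both cKit groups, at 4.67 RPKM in cKit dKO and 2.58 RPKM in cKit control. In Thy1 dKO, Cspg4, Pdgfrb, Myh11 and Des lay between 4.13 and 4.95 RPKM, and the first 3 of them had overlapping libraries. The Des libraries (4.05 and 4.21 RPKM) lay within the range of the Pdgfrb libraries (3.98 and 5.36 RPKM). Cnn1 was last in all groups but cKit control, where Actg2 was last at 0.187 RPKM.

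The 2 actins among the members are near copies of other actins, so shared reads were a concern. Of the 1986 stretches of 50 bases in the GENCODE M21 transcript of Acta2, 7 (0.353%) also occurred in the transcript of Actg1, and none occurred in those of Actg2, Acta1, Actc1 or Actb. None of the 1284 stretches of Actg2 occurred in another actin. Only exact matches of 50 bases were counted, so sharing of shorter reads or of reads aligned with mismatches was not tested. The cytoplasmic actins did not pass the test with genotype in cKit, where Actb stood at log2 0.25 ± 0.10 (edgeR adjusted p = 0.074) and Actg1 at 0.14 ± 0.12 (edgeR adjusted p = 0.43).

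Pdgfra was listed as 2 transcript entries with a common end, one starting at 75152291 and the other at 75156166 on chromosome 5. The share of its counts given to the shorter entry was 6.77% and 12.8% in Thy1 dKO, 16.1% and 15.6% in cKit dKO, 12.7% and 8.46% in Thy1 control, and 21.2% and 7.25% in cKit control. Within cKit control the 95% Wilson intervals, 20.1% to 22.4% and 6.33% to 8.30%, were far apart, so replicates differed beyond counting error and dKO and control overlapped in both populations. These intervals cover counting error only.

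Of 21 other smooth muscle contractile genes, 8 were higher in cKit dKO and 1 was lower, with a median log2 fold change of 0.54. The regulatory myosin light chain Myl9 was higher by 1.15 ± 0.18, the Z-line protein gene Pdlim3 by 1.02 ± 0.15, tropomyosin 1 (Tpm1) by 0.92 ± 0.13 and caldesmon (Cald1) by 0.85 ± 0.12, while the myosin phosphatase subunit Ppp1r12a fell by 0.34 on the log2 scale. Without replicate 1 of cKit control the counts were 5 and 0, and the call of Ppp1r12a held in 2 of the 8 fits that left out 1 library. In Thy1 dKO none of the 21 passed; Csrp1 had the smallest adjusted p (0.060) at -0.68 ± 0.16. Between the control populations 12 were lower in cKit and 1 was higher, led by the integrin alpha 8 gene Itga8 (-3.74 ± 0.49), Csrp1 (-1.85 ± 0.17), the myosin light chain kinase gene Mylk (-1.60 ± 0.18) and Pdlim3 (-1.58 ± 0.15), with Cacna1c higher by 0.94 ± 0.24. Without replicate 1 of Thy1 control 9 were lower and 2 higher.

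Of 15 tested regulators linked to Srf and myocardin, 5 were higher and 2 lower in cKit dKO. The homeobox gene Prrx1 was higher by 1.56 ± 0.18 on the log2 scale, the LIM-domain cofactor gene Fhl2 by 0.92 ± 0.19 and Mef2c by 0.68 ± 0.13, whereas Fhl1 fell by 0.63 and the myocardin-related factor gene Mkl1 by 0.48. Without replicate 1 of cKit control 3 were higher and none lower of the 16 then tested, and the median log2 fold change was 0.09 against 0.29 with all libraries. Srf itself averaged 139 CPM in cKit dKO against 114 CPM in cKit control and did not pass (log2 0.29 ± 0.14, edgeR adjusted p = 0.13). Myocd, which encodes myocardin, had a mean of 3.0 CPM in cKit dKO against 2.57 CPM in cKit control (edgeR adjusted p = 0.71). Between the control populations Myocd was lower in cKit by -2.84 ± 0.38 and Foxf1 by -3.16 ± 0.34 (log2), while Srf did not pass at 0.38 ± 0.14. In Thy1 dKO none of the 15 passed.

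Other pericyte and mural genes gave 5 higher and 2 lower of 15 in cKit dKO, with a median log2 fold change of 0.91. Angpt1, a ligand of the endothelial receptor Tie2, was higher by 1.48 ± 0.37, the endosialin gene Cd248 by 1.09 ± 0.15 and the endothelin receptor gene Ednra by 1.07 ± 0.11. The call of Angpt1 was lost without replicate 1 of cKit dKO (adjusted p = 0.091). Mcam fell by 1.62 and Anpep by 0.98 on the log2 scale. Mcam was also the 1 gene of this list that was lower in Thy1 dKO (-0.77 ± 0.13, edgeR adjusted p = 0.020), a call that held in 5 of the 8 fits that left out 1 library. Between the control populations 11 of the 15 were lower in cKit and none was higher, with Cox4i2 at -4.69 ± 1.30, Vtn at -4.40 ± 0.78, Ndufa4l2 at -4.03 ± 0.88 and Kcnj8 at -2.74 ± 0.43. The first 3 of these averaged under 5 CPM in every group, while Kcnj8, a potassium channel gene of pericytes, averaged 2.81 CPM in cKit control against 18.8 CPM in Thy1 control. Cox4i2 kept its call in 5 of the 8 fits that left out 1 library. Kcnj8, Rgs4, Vtn and the low-level markers Higd1b, Ndufa4l2, Cox4i2, Tbx18 and Foxc1 did not pass in cKit dKO.

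The ligands of the PDGF receptors changed in opposite directions in cKit dKO. Pdgfc was higher by 1.30 ± 0.42 (edgeR adjusted p = 0.031) and Pdgfd by 0.90 ± 0.26 (edgeR adjusted p = 0.018), whereas Pdgfb fell by 1.13 (edgeR adjusted p = 0.040) and Pdgfa by 0.93 (edgeR adjusted p = 0.0022), all on the log2 scale. Pdgfa, a ligand of Pdgfra, had a mean of 18.9 CPM in cKit dKO against 36.0 CPM in cKit control. Leaving out 1 library at a time, the call of Pdgfa held in 8 of 8 fits, Pdgfd in 7, Pdgfc in 5 and Pdgfb in 2. None of the 4 passed in Thy1 dKO.

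Hedgehog pathway and related genes of peritubular cells gave 8 higher of 10 in cKit dKO and none lower. Of all tested genes, 13.2% were higher there. Between the control populations 2 of the 10 were higher in cKit and 3 lower, with a median log2 fold change of -0.004. The 10 genes summed to 3207 and 2719 CPM in cKit control, against 1710 and 1529 CPM in Thy1 control. Myoid cells are known to differentiate under desert hedgehog from Sertoli cells. The hedgehog inhibitor Hhip was higher by 1.25 ± 0.19, the transcription factor Gli1 by 1.04 ± 0.15, the receptor Ptch1 by 0.94 ± 0.14 and the coreceptor Gas1 by 0.87 ± 0.16 on the log2 scale. In Thy1 dKO 1 of the 10 passed, the coreceptor gene Cdon at 0.54 ± 0.11 (edgeR adjusted p = 0.034). This call was lost whichever Thy1 library was left out, in fits where few genes passed at all. The log2 fold change of Cdon was 0.45 to 0.63 over all fits that left out 1 library. Among intermediate filaments, vimentin (Vim) was higher by 0.66 ± 0.12 and synemin (Synm) by 0.76 ± 0.21 in cKit dKO, the call of Synm being lost without replicate 1 of cKit control (adjusted p = 0.14), and nestin (Nes) did not pass at -0.49 ± 0.19.

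The members' own patterns over the 8 libraries were compared by the root mean square difference of log2 CPM centred on each gene. Cnn1 and Actg2 were left out because their mean log2 CPM was under 3. The closest pairs of members were Myh11 and Tagln (0.25), Pdgfra and Cspg4 (0.35) and Acta2 and Myh11 (0.48), and the farthest pair was Rgs5 and Cspg4 (1.98). Rgs5 and Pdgfrb, both known as pericyte genes, lay at 0.56. These are descriptions over 8 libraries that fall into 4 groups.

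At that level stood 10236 genes, the members compared above among them. Apart from members, the nearest to Pdgfra were Adam12 (0.097), Gucy1a3 (0.12) and Cdkn1c (0.12), and near Cspg4 lay Nfam1 (0.11) and Ldb2 (0.12). Nearest to Rgs5 were Ret (0.24) and Gfra1 (0.24), the subunits of the GDNF receptor of undifferentiated spermatogonia. Gfra1 had means of 50.4 CPM in Thy1 dKO, 2.62 CPM in cKit dKO, 35.0 CPM in Thy1 control and 1.70 CPM in cKit control. Near Pdgfrb lay the collagen gene Col6a6 (0.22) and Igfbp5 (0.39), and the nearest to Acta2 were Adamtsl1 (0.22), Kcnn3 (0.29) and Igfbp5 (0.31). Myh11 was nearest to Entpd2 (0.27), Thbs3 (0.30) and Col5a1 (0.30), Tagln to Plat (0.28), Emp1 (0.28) and Lgals9 (0.28), and Des to 4833403I15Rik (0.36), Pi15 (0.38) and Col12a1 (0.39). Neighbours were picked for closeness over these same libraries, so a shared order of group means follows from the choice. Of the neighbours of Des, Col12a1 had 35.8 CPM in cKit dKO against 11.7 CPM in cKit control.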

How the data were processed

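The labels' protocols name the kits: RNeasy micro for total RNA, NuGEN Ovation amplification and Nextera XT libraries, read on an Illumina HiSeq. STAR 2.4.2a and mm10 are named in the submitters' processing notes. How reads were counted and whether by strand is not given in the sources used here, so antisense and overlapping genes cannot be told apart. The authors deposited whole-number counts and RPKM values for 26099 transcript entries. From these, counts were summed per symbol and tested with edgeR 4.0.16 in R 4.3.3 (filterByExpr, TMM, quasi-likelihood F test, two-sided, Benjamini-Hochberg adjustment, threshold 0.05). All 8 libraries entered each fit with 1 mean per group and 4 residual degrees of freedom, and the 4 groups shared 1 estimate of the spread. RPKM values as deposited gave the order of levels and, as log2(RPKM + 0.1) and log2(RPKM + 1), alternatives in limma 3.58.1; DESeq2 1.42.0 was another. Each SE was taken from the F statistic, as the size of the log2 change divided by its root. Amplified reads carry no molecular identifiers.

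The members, lists and tests were chosen with earlier results of these data known, so no p was adjusted over a list. Named were the 10 members, up to 4 passing genes of largest change per list, genes needed to say what did not pass or, named after their values were seen, to complete small counts (Ppp1r12a, Cacna1c, Mkl1, Anpep), and the 3 genes nearest in pattern to each member; a few that the rule names are not reported here. Sequences are from RefSeq (GRCm38.p6).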

Additional observations from a re-analysis of the deposited data

Results flagged for a closer look

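For 4 members the dKO effect differed between the populations by the edgeR test of the difference itself: Des (2.65 on the log2 scale, cKit minus Thy1), Acta2 (1.47), Actg2 (4.40) and Cspg4 (0.84). Replicate 1 of Thy1 control had Acta2 and Actg2 levels 2.57 and 5.0 times those of its partner. Without that library Des alone kept its call, at 2.42. Other libraries mattered too, since Acta2 and Actg2 each kept their call in 3 of the 8 fits that left out 1 library. Cspg4 kept its call in 6 of these fits.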

How the results depend on the processing

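Of 438 values recomputed under other settings, 385 kept their direction and their side of the threshold. These settings included fits to only the 4 libraries of a comparison. Of 400 values with 1 library left out, 362 kept both. In Thy1 dKO, 93 genes and 0 members were called by edgeR (2059 genes at an unadjusted p under 0.05). No filter gave 563 genes and 5 members, DESeq2 334 and 1, own groups only 870 and 3, the highest entry per symbol 9 genes, limma on RPKM 8 (pseudocount 0.1) and 15 (pseudocount 1), and leaving out 1 library 3 to 400 genes and 0 to 2 members. In cKit dKO, where 5 members and 4259 genes were called, the highest entry gave 3 members and 3402 of 14858 genes, limma on RPKM 3 members and 4285 or 4346 of 12146 genes, and no filter 7 members and 4725 of 19719 genes. Leaving out 1 library gave 3 to 6 members there and 2386 to 3972 genes. Between populations it gave 1717 to 3575 genes against 2939 in control and 3101 to 5245 against 5190 in dKO. For the difference of effects, no filter gave 1490 genes and the highest entry 433 against 883. Members called there were 4, against 6 with no filter, 2 with library totals and 1 with the highest entry. Limma on RPKM called 1 member with either pseudocount. DESeq2 also called 4, but with Pdgfra in place of Acta2 (DESeq2 adjusted p = 0.15 for Acta2). Leaving out 1 library gave 219 to 1268 genes and 1 to 5 members.

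Signs turned for uncalled changes alone. With limma on RPKM, Tagln in cKit dKO was -0.016 (pseudocount 0.1) and -0.0042 (pseudocount 1), Cspg4 between dKO populations -0.083 and -0.070, Rgs5 in the difference -0.14 and -0.15, and Pdgfrb in the difference -0.15 (pseudocount 1). With library totals Cspg4 between dKO populations was -0.13 and Rgs5 in the difference -0.011, and with the highest entry Cspg4 was -0.0022. Leaving out 1 library gave, in Thy1 dKO, -0.39 to 0.042 for Des, -1.31 to 0.056 for Acta2 and -1.18 to 0.044 for Myh11, in cKit dKO -0.60 to 0.41 for Cnn1, and between dKO populations -1.46 to 0.10 for Actg2 and -0.12 to 0.18 for Cspg4. The causes were not tested. A left-out library leaves a group of 1, which is assumed to vary like the others.

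With the replicate number as a block, 157 genes and 1 member, Pdgfra (adjusted p = 0.048), were called in Thy1 dKO, 4217 genes and 6 members in cKit dKO, and 924 genes and 5 members in the difference, of 14907 genes tested. Samples share only a number, with 2 pairs per comparison and correlations of -0.05 to 0.05 between same-numbered deviations.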
